A study of Mus musculus with 3 samples.

Results

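Endothelial cells line the blood and lymphatic vessels of the colon wall. In 3 droplet single-cell RNA libraries of mouse colon they were selected on marker counts: a cell needed at least 5 unique molecular identifiers (UMIs, which count captured RNA molecules) from Pecam1, Cdh5, Kdr, Flt1, Plvap, Emcn, Esam, Tie1, Lyve1, Mmrn1 and Flt4, with at least 2 of these genes detected. Cells with at least 10 UMIs of the fibroblast genes Col1a1, Col3a1 and Dcn, 3 of the B cell genes Cd79a, Cd79b and Ms4a1, 3 of the macrophage genes C1qa, C1qb and C1qc, or 1% of UMIs from Epcam, Krt8, Krt19, Car1, Zg16 and Muc2 were left out. This gave 174 cells of 16406 kept cells, which had at least 300 genes and at most 25% mitochondrial UMIs. All animals began as germ-free mice: the PBS group carries that treatment label and has no colonization label, and the other groups were colonized, either with BT WT or with BT mutant, as the labels name them. The labels used here do not spell out BT, the mutated gene, the time after colonization, the animals' age or strain, or how many mice went into a library. Each group had 1 library, with 35 endothelial cells in PBS, 60 in BT WT and 79 in BT mutant. No difference between libraries therefore has a replicate check, no test could be run, and every interval is an exact 95% interval for counting error only.

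Blood endothelium controls the passage of fluid, solutes and leukocytes between blood and tissue. In the gut, fenestrated capillaries carry Plvap, the diaphragm protein of their pores, while venules carry selectins and adhesion molecules that slow leukocytes. Lymphatic endothelium is specified by the transcription factor Prox1, drains fluid and chylomicrons, and releases Ccl21, which guides dendritic cells and T cells. Many endothelial genes are bound by ETS family transcription factors such as Erg, Fli1 and Ets1, whose shared core is GGAA.

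The cells were selected on the pan-endothelial receptor Tie1, the blood vessel receptor Flt1 and the lymphatic matrix protein Mmrn1, among other genes. Flt1 and Mmrn1 were also used to divide the cells. Promoter windows of these genes are shown for that reason. Each is the run of 250 bases before the RefSeq start on GRCm38.p6, written in the direction of transcription, with capitals on AGGAAG or its reverse complement CTTCCT, a longer form of the ETS core. The windows are Tie1 at chr4:118489850-118490099 on the minus strand, Flt1 at chr5:147726012-147726261 on the minus strand and Mmrn1 at chr6:60944067-60944316 on the plus strand.
Tie1: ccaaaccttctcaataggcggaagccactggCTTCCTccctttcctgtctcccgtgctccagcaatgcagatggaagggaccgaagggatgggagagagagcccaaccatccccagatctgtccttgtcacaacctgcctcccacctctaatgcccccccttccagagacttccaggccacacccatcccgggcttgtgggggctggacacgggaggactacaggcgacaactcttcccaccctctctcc
Flt1: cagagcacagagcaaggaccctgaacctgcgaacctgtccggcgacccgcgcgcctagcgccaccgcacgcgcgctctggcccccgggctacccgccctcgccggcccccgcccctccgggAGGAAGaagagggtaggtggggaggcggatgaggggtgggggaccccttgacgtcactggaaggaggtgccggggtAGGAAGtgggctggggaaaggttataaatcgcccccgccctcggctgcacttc
Mmrn1: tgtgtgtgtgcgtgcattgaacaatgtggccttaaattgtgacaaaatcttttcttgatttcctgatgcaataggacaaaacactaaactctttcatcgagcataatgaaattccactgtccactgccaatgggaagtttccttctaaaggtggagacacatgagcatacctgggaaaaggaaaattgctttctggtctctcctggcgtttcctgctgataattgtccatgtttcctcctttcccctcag
The Tie1 window held 1 match, the Flt1 window 2 and the Mmrn1 window 0. Of the 20 genes outside the rule that led the endothelial cells, described next, 14 had a RefSeq promoter entry, and 10 of these (71.4%) held the motif within 250 bases before a listed start on either strand. Of the 11 rule genes 6 had an entry, and 3 of them (50%), Flt1, Emcn and Tie1, held it. Over all 27025 genes with an entry the share was 32.3% (8734 genes). A match is a string of letters in a window, not a measured site.

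The defining markers were present. Cdh5, the adhesion molecule of endothelial junctions (chr8:104101625-104144511, plus strand), had UMIs in 85.6% of the selected cells and in 0.277% of the other kept cells. Median depth was 3895.5 UMIs in the selected cells and 3644 in the others, which is a similar depth. Pecam1, which sits at the same junctions but also on leukocytes and platelets, had UMIs in 86.8% of the selected and 9.04% of the other cells. Plvap (chr8:71497765-71511752, minus strand) was detected in 42.0% and the hyaluronan receptor Lyve1 (chr7:110850607-110863239, minus strand) in 23% of the selected cells. At this depth a cell with 0 UMIs of a gene may still express it. All of these genes chose the cells, and their levels are a description.

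Levels of the rule genes were computed from UMIs summed over the endothelial cells of a library, as UMIs of the gene scaled to a library sum of 1e6 (CPM). Cdh5 was at 547 CPM (459 to 647) in PBS, 773 (680 to 874) in BT WT and 691 (618 to 771) in BT mutant. Pecam1 was at 619, 806 and 918 CPM, written here and below in the order PBS, BT WT, BT mutant. Kdr and Flt1, receptors of vascular endothelial growth factor, were at 587, 754 and 666 CPM and at 1065, 1148 and 1019 CPM. These 4 genes lay within 1.5-fold of each other across the libraries. Tie1, an orphan receptor that works with the angiopoietin receptor, was the most even, at 265, 252 and 283 CPM. The lymphatic genes varied most. Lyve1 was at 1061, 225 and 1239 CPM, and 1 BT mutant cell held 50.1% of that library's 579 Lyve1 UMIs. Mmrn1, a multimerin of the lymphatic matrix, was at 1162, 665 and 1706 CPM, and the BT WT library was the lowest for both.

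The 20 genes outside the rule with the largest ratio of endothelial to other CPM were, in order, Btnl9, Cldn5, Gpihbp1, Adgrl4, Ccl21a, Reln, Erg, Cd300lg, Grrp1, Sox18, Sox17, Rbp7, Mmrn2, Cyyr1, Egfl7, Sox7, Myct1, Lcn2, Ushbp1 and Klhl4. They include a tight junction protein, the capillary anchor of lipoprotein lipase and a group of transcription factors. Cldn5, the tight junction claudin of endothelium, was at 1134 CPM against 0.954 CPM in the other cells. Gpihbp1, which carries lipoprotein lipase to the capillary lumen, was at 997 against 0.879 CPM. The ETS factor Erg was at 110 against 0.149 CPM, and the SoxF factors Sox7, Sox17 and Sox18 were at 135, 206 and 216 CPM against 0.257, 0.340 and 0.340 CPM. Lcn2, an iron-siderophore binding protein better known from epithelium and neutrophils, was at 545 against 1.14 CPM. It was concentrated in the lymphatic cells described below, at 1355 CPM against 64.4 CPM in blood-like cells.

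The depth and the neighbours of the rule's limit were as follows. By PBS, BT WT and BT mutant, the libraries held 4425, 8829 and 8195 barcodes, 42003444, 55436776 and 54943483 UMIs and 3198, 7070 and 6138 kept cells. Endothelial cells had a median of 5333, 3437.5 and 3499 UMIs, so the PBS sum rests on fewer but deeper cells. Their median mitochondrial share was 3.35%, 3.70% and 3.06%, against 5.78%, 12.6% and 11.5% in the other kept cells. The exclusions removed 23 of 197 candidate cells, 11 of them in PBS, 6 in BT WT and 6 in BT mutant. No doublet caller was run, so these exclusions are the only guard against doublets. Between 20 and 31 barcodes of a library also occurred in another, 2 of them endothelial. The rule kept 10 cells with exactly 5 marker UMIs (median depth 1271 UMIs) and left out 6 cells with 4 (757.5 UMIs), while 133 cells had over 10. The deepest cell of each library, at 34885, 42147 and 59048 UMIs, supplied 14.0%, 13.0% and 12.6% of its library's endothelial UMIs.

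RNA of other cell types was low except for 4 lists. None of 10 granulocyte and mast cell genes was detected, and 6 of 12 T and NK cell genes, 8 of 10 B cell genes, 4 of 8 platelet genes and 2 of 8 enteric glia genes were, with sums between 3.08 and 60.3 CPM in a library. Of 12 macrophage genes 6 were detected (at most 76.4 CPM), of 8 plasma cell genes 4 (at most 213 CPM), of 10 fibroblast genes 9 (at most 280 CPM) and of 8 mesothelial genes 1 (at most 158 CPM). All 15 colonocyte genes were detected, summing in the order PBS, BT WT, BT mutant to 2967, 2379 and 1976 CPM, and all 8 goblet cell genes summed to 1266, 828 and 218 CPM. In the other kept cells the goblet sum was 8382, 15095 and 2533 CPM. All 12 mural genes (pericyte and smooth muscle) were detected, summing to 1934, 819 and 1819 CPM. Of 10 fat cell genes 9 were detected, with Lep at 0, but their sums of 18408, 22585 and 17609 CPM were mostly Fabp4, which capillary endothelium also expresses. In 39 cells (9, 11 and 19) at least 3 UMIs of T cell, mural, platelet, plasma or granulocyte genes were found. The part of this RNA in the results below was not tested, except where values without those cells are given.

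The cells were divided into a blood and a lymphatic class by marker counts. A cell was called lymphatic-like with at least 2 UMIs of Lyve1, Mmrn1, Prox1 and Reln and more of these than of Plvap, Flt1 and Emcn, and blood-like in the opposite case. By this cut 110 cells were blood-like, 49 lymphatic-like and 15 undecided. Within 1 UMI of a tie lay 1 blood-like, 0 lymphatic-like and all 15 undecided cells, which the cut itself largely fixes. The undecided cells were shallow, with a median of 1362 UMIs against 3701.5 in blood-like and 4774 in lymphatic-like cells. Blood-like cells had a median of 12 blood and 0 lymphatic marker UMIs, and lymphatic-like cells 2 and 28. Both sets were found together mostly in lymphatic-like cells: 28 of the 49 lymphatic-like cells but 2 of the 110 blood-like cells had at least 2 UMIs of both sets. Emcn, an endothelial sialomucin, accounts for part of it, since it was at 430 CPM in blood-like and 435 CPM in lymphatic-like cells although it was used as a blood marker. The classes are ranges of a count, and the genes that define them are no finding.

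**Figure D1:**
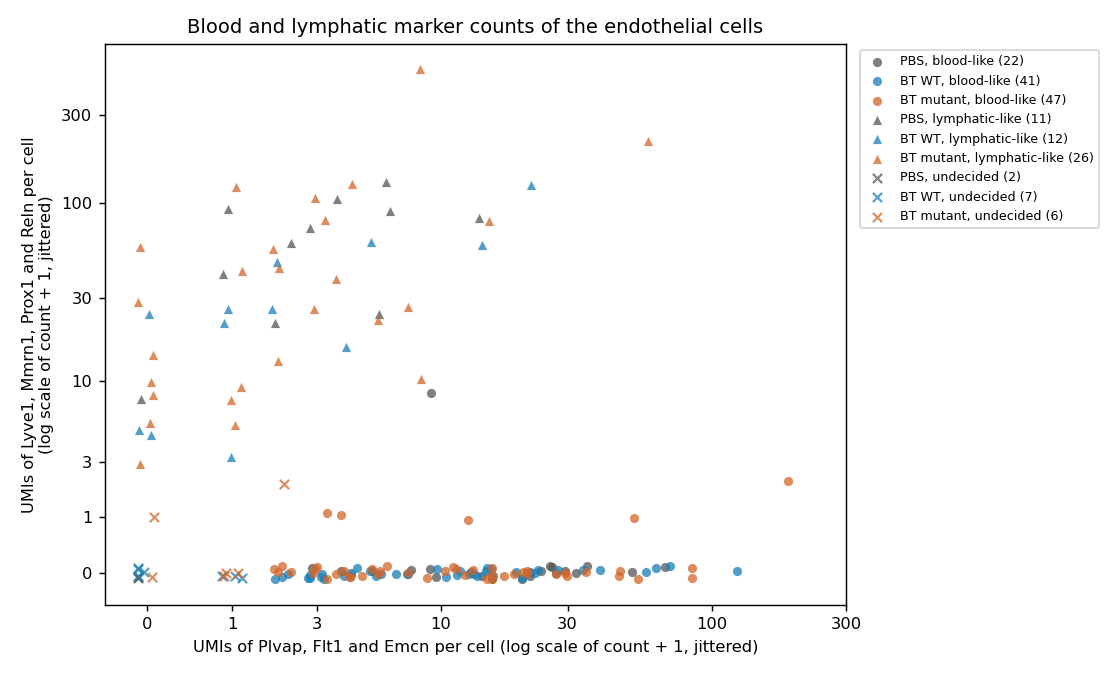
UMIs per cell of the blood markers Plvap, Flt1 and Emcn (horizontal) and of the lymphatic markers Lyve1, Mmrn1, Prox1 and Reln (vertical), on log scales of the count plus 1 with jitter, for 174 endothelial cells. Blood-like cells (circles, 110) lie along the bottom, lymphatic-like cells (triangles, 49) rise on the left and centre, and the 15 undecided cells (crosses) sit near the origin, in every library.

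Genes outside the split also differed between the classes. Ly6c1, a surface protein of blood endothelium, had 1422 UMIs (2289 CPM) in blood-like cells and 0 in lymphatic-like cells, at least 296-fold higher with the empty class set to 3 UMIs. Sparcl1, a matrix glycoprotein, was at 1181 CPM against 0 UMIs (at least 153-fold), and Nrp1, a co-receptor of vascular endothelial growth factor and semaphorins, at 570 CPM against 0 UMIs (at least 73.7-fold). Sox17, an arterial and blood endothelial factor, was likewise at 341 CPM against 0 UMIs (at least 44.1-fold). Ly6a was at 1278 against 5.15 CPM, a ratio of 248 (68.4 to 2051) that rests on 2 lymphatic UMIs. Fabp4, the fatty acid binding protein of capillaries, was at 28502 against 1659 CPM, and the fatty acid transporter Cd36 at 3304 against 433 CPM. The other genes named on the blood-like side were Rgs5, Rgcc, Lrrc8c, Scarb1, Fas, Kitl, Rsad2 and Tmem252. Rgs5 is better known from pericytes, and 1 PBS cell held 71.7% of the PBS endothelial Rgs5 UMIs. The summed mural genes were at 1883 CPM in blood-like and 126 CPM in lymphatic-like cells, and their part in this side was not tested.

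Ccl21a, the chemokine that draws CCR7-bearing cells into lymphatics, was at 7675 CPM with 2979 UMIs, against 1 UMI in the blood-like cells, a ratio of 4769 (855 to 188412). Its near-identical copies share reads, so its level is uncertain. The transcription factor Maf was at 1829 against 20.9 CPM (87.4-fold, 50.8 to 165), and the polarity gene Pard6g at 657 against 6.44 CPM (102-fold, 39.4 to 377). Dtx1, a regulator of Notch signalling, was at 358 CPM against 0 UMIs (at least 74.2-fold), the semaphorin Sema3d at 327 CPM against 0 UMIs (at least 67.8-fold), and Thy1, a surface glycoprotein, at 286 CPM against 0 UMIs (at least 59.2-fold). Tbx1, needed for lymphatic development, was at 219 CPM against 0 UMIs (at least 45.4-fold), and Pdpn, the podoplanin of lymphatics, at 103 CPM against 0 UMIs (at least 21.3-fold). Nsg1, Foxp2, Pcsk6, Nrxn2, Fndc1 and Adgrg3 completed the named genes of this side. For Foxp2 and Nsg1, 1 cell held between 37.5% and 59.3% of the UMIs in each library.

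**Figure D2:**
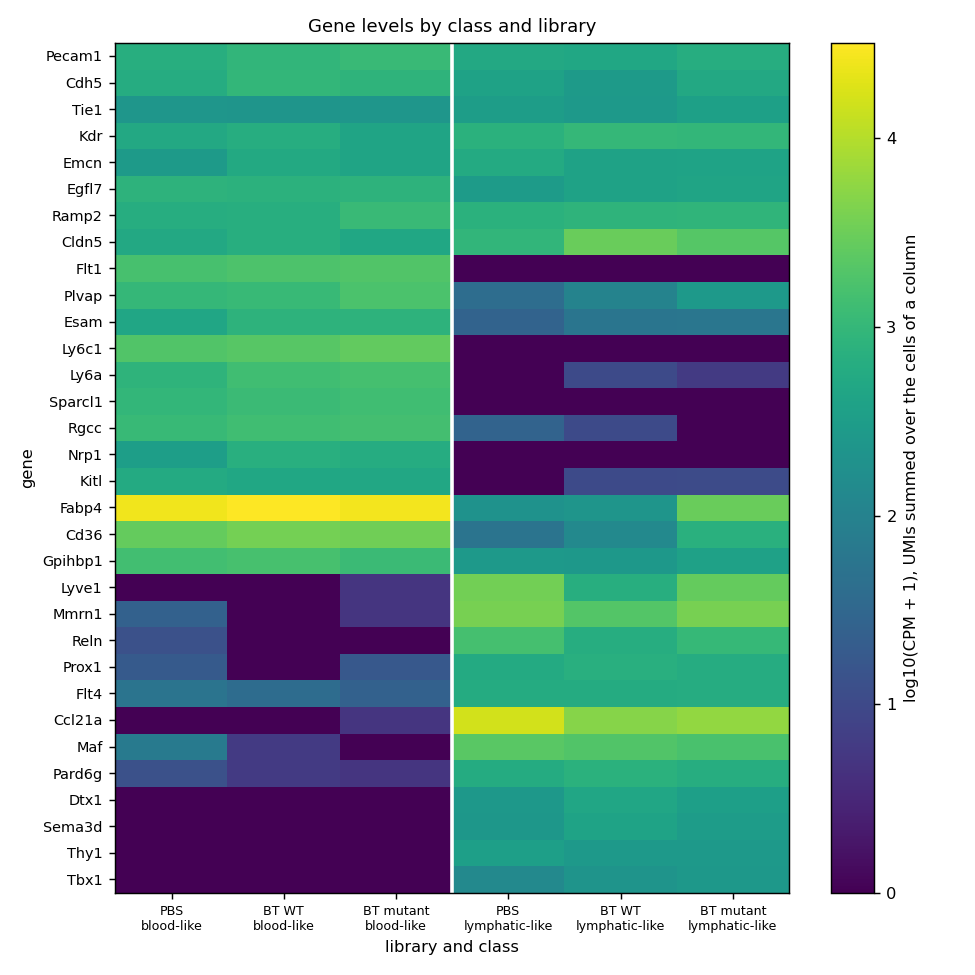
Level of 32 genes (rows) as log10 of CPM plus 1, from UMIs summed over the blood-like cells (left 3 columns) or lymphatic-like cells (right 3 columns) of each library. Pan-endothelial genes at the top are present in all columns, the block from Flt1 to Gpihbp1 is high in the blood-like columns, and the block from Lyve1 to Tbx1 in the lymphatic-like columns, in each of the 3 libraries.

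Over all 6640 genes with at least 20 UMIs in the 2 classes, 1166 (17.6%) were at least 1.5-fold higher in blood-like cells with the same side in all 3 libraries, and 902 (13.6%) in lymphatic-like cells. Of 24 blood vessel genes outside the rule that reached 20 UMIs, 23 were on the blood-like side. Of 24 lymphatic genes outside the rule 20 were on the lymphatic-like side, and 1, Tmem176b, on the other. The lymphatic list holds Prox1 and Reln, which were themselves used for the split. The blood vessel and lymphatic lists were chosen as class markers, so their counts describe the split. Among lists of function, 14 of 15 capillary genes, 10 of 13 lipid handling genes, 12 of 17 leukocyte adhesion genes and 22 of 32 interferon-stimulated genes were on the blood-like side. The capillary list holds the split gene Plvap and the rule gene Kdr, and the leukocyte adhesion list the rule genes Pecam1 and Esam. Both lists and the lipid handling list share genes with the blood vessel list, so their counts too partly describe the split. The median log2 ratio of the interferon list was 1.07 toward blood-like cells, against 0.02 over all genes. Iigp1, an interferon-inducible GTPase, was at 888 against 155 CPM, and Isg15, a ubiquitin-like interferon product, at 285 against 43.8 CPM. Of 30 oxidative phosphorylation genes 1 was on the blood-like side and 0 on the other.

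Further genes between the classes were picked after their values were seen. Kdr was higher in lymphatic-like cells, at 922 against 525 CPM (1.76-fold, 1.51 to 2.05), and so was Cldn5, at 2123 against 555 CPM (3.82-fold, 3.37 to 4.35), both in all 3 libraries. Flt1, which was itself used for the split, had 1109 UMIs in blood-like and 0 in lymphatic-like cells. Lbp, which hands bacterial lipopolysaccharide to its receptor complex, was at 487 CPM in lymphatic-like and 37.0 in blood-like cells (13.2-fold, 8.51 to 21.3), and was detected in 35 of 49 and 7 of 110 cells. Of 13 posterior Hox genes 2 reached 20 UMIs in the classes. Hoxd9 was at 144 CPM in lymphatic-like and 12.9 CPM in blood-like cells (11.2-fold, 5.31 to 27.2), while Hoxb9 had 23 UMIs in blood-like and 1 in lymphatic-like cells (14.4-fold, 2.33 to 592).

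The blood-like cells were divided again on Plvap itself, a division chosen after the values were seen. At least 2 Plvap UMIs were found in 50 cells (12 in PBS, 20 in BT WT, 18 in BT mutant), 0 in 51 cells (8, 16 and 27) and exactly 1 in 9 cells. The Plvap-positive cells were deeper, with a median of 5173 UMIs against 2880, and the part of depth in the division was not tested. Of 4665 genes with at least 20 UMIs, 652 (14%) were at least 1.5-fold higher in the positive cells and on that side in all 3 libraries, and 317 (6.8%) in the cells at 0. General endothelial genes differed as well: of 24 pan-endothelial genes outside the rule, 7 were on the positive side and 3 on the other. Kdr was at 618 CPM in the positive cells against 329 CPM in those at 0 (1.88-fold, 1.41 to 2.52), while Cdh5 was at 737 against 972 CPM and Esam at 638 against 935 CPM. Pecam1 was at 948 and 924 CPM. Kdr, Cdh5, Esam and Pecam1 are rule genes, and a cell at 0 for Plvap had to reach 5 marker UMIs without it. Their levels on the 2 sides are therefore a description.

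Of 24 vessel wall matrix genes 4 were on the Plvap-positive side and 1 on the other, near the 14% and 6.8% over all genes. Of 14 venous and venule genes 4 were on the Plvap-positive side and 0 on the other. Igfbp7, a secreted binding protein of vessel walls, was at 4858 against 2290 CPM (2.12-fold, 1.91 to 2.36), and Igfbp3 at 1120 against 324 CPM (3.46-fold, 2.64 to 4.59). The prostaglandin transporter Slco2a1 was at 346 against 26.6 CPM (13.0-fold, 5.44 to 40.7). Nkx2-3, a homeobox factor of intestinal and splenic vessels, was at 179 CPM, against 2 UMIs in the cells at 0 (16.9-fold, 4.50 to 142). The collagen Col15a1 was at 161 CPM against 0 UMIs (at least 10.1-fold), and Col13a1 at 179 CPM against 3 UMIs (11.2-fold, 3.69 to 55.8). Ackr1, Lrg1, Selp, Rasa4, Myof, Lepr, Wdfy1 and Ehd4 were the other named genes. Each of these was on the positive side in all 3 libraries. Selp, however, was found in only 7 and Ackr1 in 6 of the 50 positive cells, and PBS and BT WT each had 1 cell with Selp.

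Cells at 0 for Plvap were higher in lipid handling genes: 9 of 13 such genes were on their side in all 3 libraries and 0 on the other. Fabp4 was at 41618 against 20561 CPM (2.02-fold, 1.96 to 2.09), Cd36 at 4776 against 2510 CPM (1.90-fold, 1.74 to 2.08) and Gpihbp1 at 2247 against 923 CPM (2.43-fold, 2.11 to 2.81). Lpl, lipoprotein lipase itself, was at 824 against 144 CPM (5.73-fold, 4.20 to 7.90). The factors Tcf15 and Meox2, which act together on fatty acid uptake in capillaries of other organs, were at 303 against 154 CPM and at 138 against 58.0 CPM. Cldn5 was at 1015 against 214 CPM (4.73-fold, 3.65 to 6.19), the water channel Aqp1 at 2364 against 1022 CPM and the protease inhibitor Timp4 at 909 against 172 CPM. The remaining named genes were Cfd, Scd1, Car3, Gstt2, Rasgrp2, Zg16, Ercc1, Cdh13 and Saa1.

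Some of that list moves with other cells' RNA. Cfd, the adipsin of fat cells, was at 946 against 22.7 CPM, but 1 BT WT cell held 144 of that library's 167 Cfd UMIs, together with 48 Car3, 29 Scd1 and 5 Adipoq UMIs. Without cells that had at least 3 UMIs of fat cell genes the Cfd log2 ratio was 0.85 in favour of the positive cells, and that of Car3 was -1.06. Cfd and Car3 are fat cell genes themselves, so the filter could lower them by their own counts. Their change is no independent check. Lpl, also on the fat cell list, was at a log2 ratio of -3.59 there. The filter used only part of that list: it kept 93 blood-like and 47 lymphatic-like cells. At least 3 UMIs of the whole list were found in 29 PBS, 47 BT WT and 57 BT mutant cells. Zg16 and Saa1 are epithelial products, and the summed colonocyte genes were at 2811 CPM in the cells at 0 and 1804 CPM in the positive cells. Without cells that held RNA of T cells, mural cells, platelets, plasma cells or granulocytes the log2 ratio was -0.33 for Zg16 and -0.61 for Saa1, against -1.66 and -1.57 over all cells, so Zg16 no longer passed 1.5-fold. With cells thinned to 1000 UMIs Saa1 was at -0.30, also short of 1.5-fold. The part of epithelial RNA in these ratios was not tested.

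**Figure D3:**
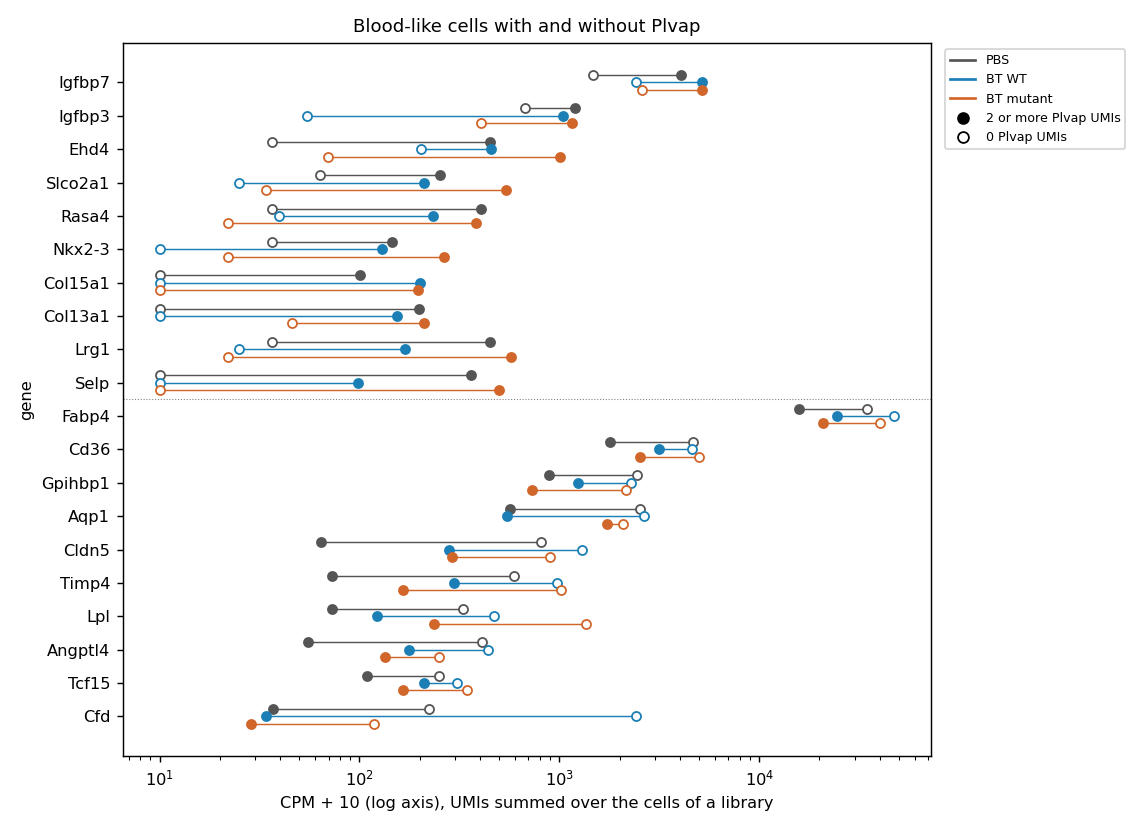
CPM plus 10 on a log axis for 20 genes in blood-like cells with at least 2 Plvap UMIs (filled) and with 0 (open), joined within a library (grey PBS, blue BT WT, orange BT mutant). Filled points lie to the right for the 10 upper genes, from Igfbp7 to Selp, and open points for the 10 lower genes, from Fabp4 to Cfd, in each library. The Selp points of PBS and of BT WT rest on 1 cell each.

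Venule cells were few. Selp, the P-selectin of activated venules, was detected in 9 of the 174 cells and Ackr1, the chemokine-binding receptor of postcapillary venules, in 8. Either gene was found in 11 cells, 1 in PBS, 2 in BT WT and 8 in BT mutant. Of the 11 cells 8 were blood-like and 3, all in BT mutant, lymphatic-like, while 9 carried Plvap and 9 carried Lrg1. Madcam1, the gut addressin that binds the integrin of homing lymphocytes, was found in 3 cells, and 1 BT mutant cell held 41 of that library's 42 UMIs. That cell had 36357 UMIs, 158 of Plvap and 99 of the pericyte gene Rgs5. Glycam1 and Fut7, genes of high endothelial venules, were at 0. Selp was at 157, 33.9 and 173 CPM, and all PBS and all BT WT UMIs came from 1 cell each.

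Endothelial cells made up a similar small share of each library. The share of kept cells was 1.09% (0.763 to 1.52) in PBS, 0.849% (0.648 to 1.09) in BT WT and 1.29% (1.02 to 1.60) in BT mutant, and the intervals of PBS and BT WT overlapped those of both other libraries. Of non-epithelial kept cells the shares were 1.36% (0.949 to 1.89), 1.04% (0.798 to 1.34) and 1.60% (1.27 to 1.99). BT mutant thus stood 1.52-fold above BT WT over all kept cells, and 1.53-fold over non-epithelial cells. With a mitochondrial limit of 10%, which keeps fewer of the other cells, the shares of kept cells were 1.32% in PBS, 1.76% in BT WT and 2.45% in BT mutant, so PBS and BT WT exchanged places. The order was reversed against stroma: for every 100 cells with fibroblast genes there were 20.3 endothelial cells in PBS, 27.1 in BT WT and 18.9 in BT mutant. Cell yield through dissociation and vessel content of the tissue cannot be told apart.

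The lymphatic-like share of endothelial cells was 31.4% (16.9 to 49.3; 11 of 35) in PBS, 20% (10.8 to 32.3; 12 of 60) in BT WT and 32.9% (22.7 to 44.4; 26 of 79) in BT mutant. The 3 intervals overlapped. Lyve1 and Mmrn1, also lowest in BT WT, help define the class, so their levels and this share are not independent. Over all endothelial cells Ccl21a was at 4836, 1628 and 2697 CPM. In BT mutant 1 cell held 44.4% of that library's 1260 Ccl21a UMIs. The part of the lymphatic-like share in these levels was not tested.

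**Figure D4:**
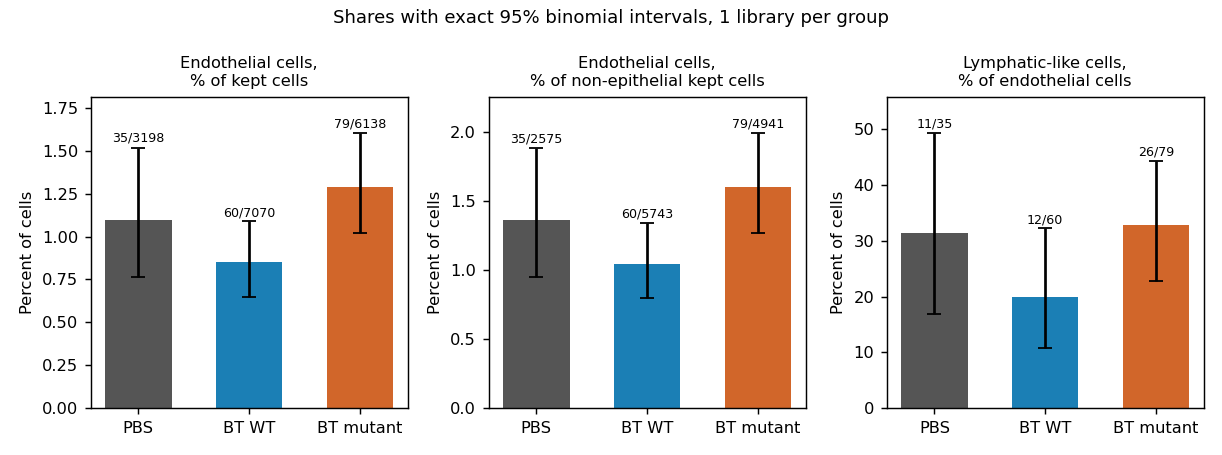
Endothelial cells as a percentage of kept cells (left) and of non-epithelial kept cells (centre), and lymphatic-like cells as a percentage of endothelial cells (right), for the 3 libraries, with cell counts above each bar. Error bars are exact 95% binomial intervals, and those of PBS and BT WT overlap in each panel.

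Libraries were compared on UMIs summed over their endothelial cells, and a gene was counted when its CPM differed at least 1.5-fold and it had at least 50 UMIs in the 2 sums. BT WT over PBS gave 208 of 1893 genes higher (11%) and 188 lower (9.93%). BT mutant over BT WT gave 286 of 2752 higher (10.4%) and 165 lower (6%), and BT mutant over PBS 360 of 2487 higher (14.5%) and 201 lower (8.08%). With 1 library a group these counts describe libraries. For gene lists the minimum was 20 UMIs, where the backgrounds were 15.3% higher and 15.3% lower for BT WT over PBS, 14.8% and 10.9% for BT mutant over BT WT, and 18.8% and 13.3% for BT mutant over PBS. The comparisons share libraries, so their values are given side by side.

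Interferon-stimulated genes were higher in the endothelium of both colonized groups than in PBS. Of 26 list genes 15 were higher and 1 lower in BT WT over PBS (median log2 ratio 0.76), and of 30 genes 18 were higher and 2 lower in BT mutant over PBS (0.73). BT mutant over BT WT had 6 higher and 7 lower of 32, with a median of -0.12. Iigp1 was at 326 CPM (259 to 405) in PBS, 745 (654 to 845) in BT WT and 674 (602 to 753) in BT mutant, 2.29-fold (1.77 to 2.98) and 2.07-fold (1.62 to 2.68) above PBS. Bst2, the tetherin that holds viruses at the cell surface, was at 153, 335 and 330 CPM, 2.20-fold (1.51 to 3.27) and 2.16-fold (1.5 to 3.16) above PBS. Ifit2, an interferon-induced RNA-binding protein, had 1, 14 and 32 UMIs, a ratio of 17.0 (2.85 to 694) for BT mutant over PBS. Gbp4, a guanylate-binding protein, was at 20.1, 95.4 and 74.9 CPM.

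The list was not uniform. Isg15 was at 221, 200 and 167 CPM and Rsad2, the antiviral viperin, at 153, 114 and 64.2 CPM, so PBS was the highest for both. In PBS 1 cell held 40.0% of the Isg15 and 63.2% of the Rsad2 UMIs. The same list genes had median log2 ratios of 0.65 and 0.44 in the other kept cells of BT WT and BT mutant over PBS, so a higher level was also seen outside the endothelium. Restricting the comparison to blood-like cells gave 2.49-fold for Iigp1 in both colonized groups.

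Genes of MHC class I presentation, which shows peptides to CD8 T cells, were highest in BT WT. Of 14 such genes 10 were higher and 0 lower in BT WT over PBS (median log2 ratio 0.72), against 4 higher and 0 lower in BT mutant over PBS (0.39). In BT mutant over BT WT 0 of 15 were higher and 5 lower (-0.52). H2-K1, a class I heavy chain, was at 913 CPM (798 to 1039) in PBS, 1659 (1522 to 1805) in BT WT and 1241 (1142 to 1347) in BT mutant. H2-D1, another, was at 1298, 2419 and 1843 CPM, and B2m, their light chain, at 1266, 1591 and 1333 CPM. The class I heavy chains are near-identical in parts, so reads may be split between them. In the other kept cells the list medians were 0.32, 0.05 and -0.37 for BT WT over PBS, BT mutant over PBS and BT mutant over BT WT. MHC class II genes reached 20 UMIs for 3 genes at most.

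Junction and lipid handling genes were higher in BT WT than in PBS. Of 17 junction genes 8 were higher and 0 lower (median log2 ratio 0.50), and of 13 lipid handling genes 8 were higher and 0 lower (0.61). The junction list holds Cdh5, Esam, Pecam1 and Plvap, rule genes that also chose the cells. In the other kept cells those medians were 0.10 and -1.30. Fat cell genes summed in these other cells to 4179 CPM in PBS, 84.1 CPM in BT WT and 100 CPM in BT mutant. The part of fat cell RNA in the -1.30 was not tested. The fat cell list moved with the lipid list in the endothelial cells, with 4 higher and 0 lower of 5 genes in BT WT over PBS (1.33), and 1 higher and 3 lower in BT mutant over BT WT (-1.15). Both lists hold Fabp4 and Lpl, so they are not independent, and the part of fat cell RNA in the lipid values was not tested. Esam, an adhesion molecule of endothelial junctions, was at 346, 588 and 492 CPM, 1.70-fold (1.31 to 2.22) above PBS in BT WT. Cldn5 was at 643, 1456 and 1171 CPM, 2.26-fold (1.89 to 2.72) above PBS, but 1.26-fold among blood-like cells alone. Fabp5, a second fatty acid binding protein, was at 458, 856 and 387 CPM, 1.87-fold (1.5 to 2.34) higher in BT WT. In BT mutant over BT WT 0 of 18 junction genes passed 1.5-fold in either direction, and 1 lipid gene was higher and 3 lower of 13. In BT mutant over PBS 4 of 17 junction genes and 4 of 13 lipid genes were higher and 0 lower.

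The vessel wall matrix list had 7 higher and 3 lower of 24 genes in BT WT over PBS (median log2 ratio 0.22), and 6 higher and 4 lower of 25 in BT mutant over BT WT (0.05). Sparc and Cxcl12 were named by the ranking below, and the collagens beside them were picked after their values were seen. Sparc, a matrix glycoprotein of remodelling vessels, was at 764, 1517 and 627 CPM, 1.99-fold (1.68 to 2.36) higher in BT WT than in PBS and 2.42-fold (2.09 to 2.81) higher than in BT mutant. Cxcl12, the chemokine ligand of Cxcr4, was at 732, 1437 and 612 CPM, 1.96-fold (1.65 to 2.34) above PBS and 2.35-fold (2.02 to 2.73) above BT mutant. The basement membrane collagens Col4a1 and Col4a2 were at 627, 945 and 473 CPM and at 446, 505 and 242 CPM, so BT WT and PBS were close for Col4a2. All 4 genes were mainly in blood-like cells, where the BT mutant to BT WT ratios were 0.467, 0.503, 0.493 and 0.531.

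Venous and venule genes were highest in BT mutant. Of 15 such genes 10 were higher and 0 lower over BT WT (median log2 ratio 0.66), and 8 higher and 0 lower over PBS (0.69). In BT WT over PBS 2 of 12 were higher and 2 lower (-0.18). The medians in the other kept cells were 0.29, -0.06 and -0.33. Other lists were also higher in BT mutant over BT WT: 9 of 24 lymphatic genes outside the rule were higher and 0 lower (0.45), and 5 of 10 mural genes were higher and 3 lower (0.71). That lymphatic list holds the split genes Prox1 and Reln and shares Nrp2 with the venous list. Summed venous genes were at 2986 CPM in lymphatic-like and 2524 CPM in blood-like cells, and the part of the lymphatic-like share and of mural RNA in the venous values was not tested. Vcam1, the adhesion molecule for leukocyte integrins, had 4 UMIs in 2 PBS cells, 8 in 4 BT WT cells and 56 in 14 BT mutant cells, 4.87-fold (2.31 to 11.8) above BT WT and 7.45-fold (2.75 to 28.3) above PBS. Vwf, von Willebrand factor of larger vessels, was at 125, 70.8 and 214 CPM, but 1 cell held 67.7% of the PBS, 52.2% of the BT WT and 39.0% of the BT mutant UMIs. Among cells thinned to 1000 UMIs its log2 ratio of BT mutant over BT WT was 0.06. The BT mutant library also held 8 of the 11 cells with Selp or Ackr1, but 3 of its 8 were lymphatic-like. Among blood-like cells such cells were 1 of 22 in PBS, 2 of 41 in BT WT and 5 of 47 in BT mutant. The mix of vessel types sampled and the level per cell cannot be told apart.

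Stress and immediate early genes, which respond to dissociation, were lowest in BT mutant. Of 24 genes 8 were lower and 1 higher over BT WT (median log2 ratio -0.44), and 6 lower and 0 higher over PBS (-0.44). In BT WT over PBS 2 were lower and 0 higher (-0.05). The same genes had medians of 0.02, -0.12 and -0.23 in the other kept cells. Hspa1a, a heat shock chaperone, was at 342 CPM (273 to 423), 274 (220 to 337) and 89.9 (64.8 to 122). Hsp90aa1 was at 860, 668 and 327 CPM, and Fos at 4482, 4109 and 3024 CPM. Hes1, a target of Notch signalling outside this list, was at 1009, 576 and 405 CPM, 2.49-fold (2.06 to 3.03) lower in BT mutant than in PBS. Of 16 Notch and BMP genes 4 were higher and 3 lower in that comparison, with a median log2 ratio of 0.18.

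**Figure D5:**
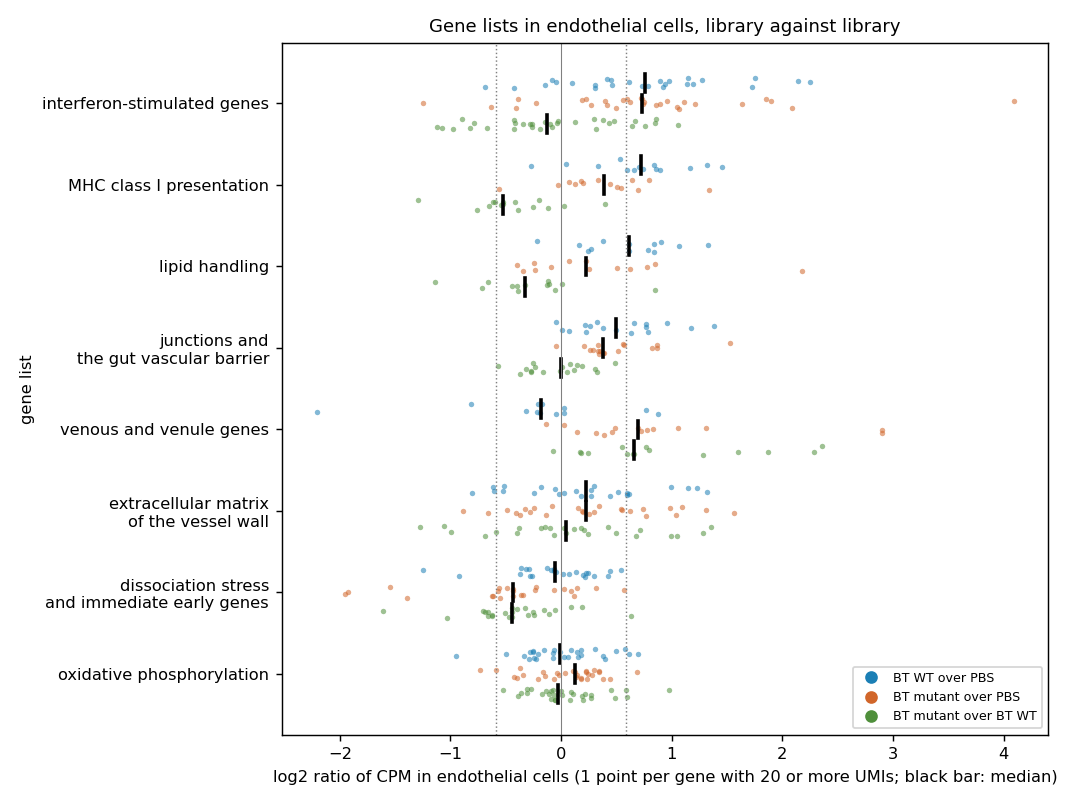
Log2 ratio of CPM in endothelial cells for genes of 8 lists (1 point per gene with at least 20 UMIs in the 2 libraries), for BT WT over PBS (blue), BT mutant over PBS (orange) and BT mutant over BT WT (green), with the list median as a black bar and 1.5-fold as dotted lines. Interferon-stimulated genes lie to the right in both comparisons with PBS (medians 0.76 and 0.73), venous genes in both comparisons of BT mutant (0.69 and 0.66), stress genes to the left there, and oxidative phosphorylation genes around 0.

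Single genes were named by rank of their ratio, 10 a direction, where the interval excluded 1. For BT WT over PBS these were Cfd, Nsg1, Car3, Btnl9, Ifi27l2a, Rflnb, Pcp4l1, Pltp, Heg1 and H2-Q7 on the higher side. Btnl9, a butyrophilin-like protein of capillaries, was at 105, 508 and 351 CPM in PBS, BT WT and BT mutant, 4.86-fold (3.20 to 7.66) higher in BT WT and in 10, 32 and 37 cells. Heg1, a receptor needed for vessel integrity, was at 64.3, 185 and 182 CPM (2.87-fold, 1.63 to 5.34), and the phospholipid transfer protein Pltp at 101, 295 and 152 CPM (2.94-fold, 1.88 to 4.77). Cfd had 18, 167 and 14 UMIs, and its log2 ratio of BT WT over PBS was 0.01 without cells that carried other cells' RNA. The PBS library's other cells held 1281 CPM of Cfd, against 0.268 CPM in BT WT.

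Tagln, Gm26917, Lyve1, Cd59a, Bc1, Nop56, Ccl21a, Cirbp, Errfi1 and Ddit4 were on the lower side of BT WT over PBS. Tagln, a smooth muscle protein, was at 507, 21.5 and 430 CPM, but 1 blood-like PBS cell held 110 of 126 UMIs. In BT mutant 1 undecided cell with 6 rule UMIs held 112 of 201 Tagln and 131 of 157 Acta2 UMIs. Gm26917, a noncoding RNA gene, was at 511, 92.3 and 120 CPM, and 1 PBS cell held 82.7% of its UMIs there. The same PBS cell held all 38 PBS UMIs of the proliferation marker Mki67 and 14 of Top2a. The stress-responsive Ddit4, an inhibitor of mTOR signalling, was spread more evenly, at 318, 129 and 111 CPM and in 26, 21 and 29 cells (2.46-fold lower in BT WT, 1.67 to 3.66).

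For BT mutant over BT WT the higher side held Tagln, Ccn2, Ptgs1, Lyve1, Vcam1, Mustn1, Tgfbi, Golim4, Socs2 and Filip1l, and the lower side Cfd, Hspa1a, Car3, Nmt1, Cd38, Dnajb9, Sparc, Rflnb, Cxcl12 and Aqr. Ccn2, a matricellular target of YAP signalling, had 5, 7 and 69 UMIs in 3, 4 and 24 cells, at 20.1, 21.5 and 148 CPM (6.85-fold above BT WT, 3.15 to 17.7). Ptgs1, the constitutive cyclooxygenase, was at 32.2, 21.5 and 146 CPM (6.76-fold, 3.11 to 17.4). Tgfbi, a secreted adhesion protein, was at 109, 61.6 and 293 CPM and mainly lymphatic-like, at 433 against 25.8 CPM in blood-like cells. Socs2, a feedback inhibitor of cytokine signalling, was at 84.4, 55.4 and 199 CPM in 15, 13 and 30 cells.

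For BT mutant over PBS the higher side held Vcam1, Ccn2, Nts, Ptgs1, Lpl, Aph1b, Pdlim4, Pdgfa, Ifi27l2a and Btnl9, and the lower side Gm26917, Hspa1b, Bc1, Hspa1a, Nop56, Nmt1, Nr4a1, Ddit4, S100a1 and Phactr4. Lpl was at 88.4, 222 and 400 CPM in PBS, BT WT and BT mutant, 4.53-fold (2.90 to 7.40) above PBS, and no cell held more than 18.2% of its UMIs in any library. In the other kept cells Lpl was at 151, 27.9 and 32.5 CPM, the opposite order for PBS. The fat cell list, which holds Lpl, summed there to 4179, 84.1 and 100 CPM, and its part in the Lpl values was not tested. Nts, neurotensin, a peptide that intestinal lymphatics also make, had 9, 27 and 94 UMIs in 2, 3 and 8 cells. The deepest BT mutant cell, called lymphatic-like, held 40 of the 94 Nts UMIs and also 30 Plvap UMIs. Of all Nts UMIs 122 were in lymphatic-like against 7 in blood-like cells. Nr4a1, an immediate early nuclear receptor, was at 350, 185 and 120 CPM, and in the other kept cells at 299, 176 and 120 CPM.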

How the data were processed

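Colon cells were captured with Chromium Single cell 3' v3 reagents, per the labels' protocols, in 1 library a group. Values are raw UMI counts (whole numbers, a gene in a barcode), as deposited; Cell Ranger 5.0.0 made the matrices, per the file headers. Cell Ranger, STAR and the mm10 build are named per the submitters' processing notes. Not given in the sources used here are the annotation release, how cells were called, and whether doublets were removed. All 32285 gene rows were read, and rows that share a symbol were summed (32245 symbols).

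The cell rule, the classes and the gene lists were chosen with earlier results of these data known. UMIs were summed over the endothelial cells of a library or class and scaled to CPM. Levels carry exact Poisson 95% intervals, shares exact Clopper-Pearson intervals and ratios conditional binomial intervals, all for counting error only. UMIs within a cell are not independent between cells, so these intervals are narrower than the spread between cells or mice. With 1 library a group no test between groups was run, and genes were counted past 1.5-fold with at least 50 UMIs (lists and classes: 20). Between classes the side also had to be the same in all 3 libraries. A ratio against 0 UMIs uses a floor of 3 UMIs.

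Named genes were the 11 rule genes and the 20 leading genes (at least 100 UMIs, in at least 20% of endothelial cells). Between classes they were 12 genes a side with at least 50 UMIs. Between libraries they were 10 genes a direction with at least 50 UMIs, 100 CPM and detection in 10% of cells of the higher library, and at least 0.5 times the CPM of its other cells. From each list the most abundant, the most different and the defining members could be named. Mitochondrial, ribosomal, immunoglobulin, Xist and Y-linked genes were left out. The sums, intervals and counts were tested on simulated data.

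Alternatives were a fold of 2, other UMI minimums, equal weight per cell, thinning to 1000 UMIs, median-ratio scaling, blood-like cells only, other mitochondrial, gene and marker limits, and, chosen after seeing the data, leaving out the deepest cell of each library or cells with other cells' RNA, and all alternatives between classes. Gene positions are from GENCODE vM21 on GRCm38, and promoter sequences from RefSeq on GRCm38.p6. Python 3.11.15, numpy 2.4.6, scipy 1.17.1, pandas 2.3.3 and matplotlib 3.10.9 were used.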

Additional observations from a re-analysis of the deposited data

How the results depend on the processing

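Counts of genes moved with the threshold and with depth. The 396 genes of BT WT over PBS became 107 at a fold of 2, 130 at 100 UMIs, 6996 with no minimum, 51 with cells thinned to 1000 UMIs, 255 in blood-like cells only and 239 without cells that held other cells' RNA. The 451 of BT mutant over BT WT became 108, 167, 6149 and 62 under the first 4 of these, 774 with equal weight per cell and 251 without other cells' RNA. The 561 of BT mutant over PBS became 154, 184, 7542, 58, 334 and 227 under the 6 settings named for BT WT over PBS. Between classes the number of genes compared moved too, from 6640 to 3461 at 50 UMIs and 1192 with thinning. The blood-like side held 1166, 614 and 277 of these, and the lymphatic-like side 902, 451 and 167. Between the Plvap classes 4665, 1941 and 685 genes were compared. Of these 652, 226 and 107 were on the Plvap-positive side and 317, 138 and 60 on the side of the cells at 0. Without other cells' RNA the Plvap-positive side held 341 of 2463 genes. Thinned sums hold fewer UMIs, so fewer genes reach the minimum, and a lower count alone is not a lower share.

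The endothelial share of kept cells in BT WT was 1.76% at a mitochondrial limit of 10% and 0.636% at 10 marker UMIs. In BT mutant it was 2.45% and 0.994% there, 0.999% with no mitochondrial limit and 0.978% without cells with other cells' RNA. Of non-epithelial cells the same settings gave 2.07% and 0.784% in BT WT, and 2.89%, 1.23%, 1.2% and 1.21% in BT mutant. The lymphatic-like share stayed inside its 95% interval under each of its alternatives.

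Of 492 list medians recomputed, 5 changed sign. The goblet cell median of BT WT over PBS became 0.31 with equal weight, 0.13 at the 10% mitochondrial limit, 0.54 without other cells' RNA and 0.33 without the deepest cells, and the fat cell median of BT mutant over BT WT 0.22 without other cells' RNA. Of 772 gene values 12 changed sign: Cfd between Plvap classes (0.85 without fat-gene cells), Gm26917 of BT WT over PBS (0.47 thinned, 0.21 without other cells' RNA, 0.0446 without the deepest cells) and of BT mutant over PBS (0.66 thinned, 0.19 at the 10% limit, 0.66 and 0.39 without the same cells), Bc1 of BT WT over PBS (0.33 in blood-like cells), Car3 of BT mutant over BT WT (0.22 without other cells' RNA), and, of BT mutant over PBS, Nts (-1.79 in blood-like cells) and Aph1b (-0.0211 thinned). In blood-like cells all 7 Nts UMIs came from 1 PBS cell, and BT mutant, with 0, was set to the floor of 3 UMIs. Except for this Nts value and for Gm26917 without the deepest cells, whose deepest PBS cell held most of its UMIs, the cause was not tested.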
